A study of Mus musculus with 8 samples.

Results

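The genes described here are the receptors of 2 neuropeptide families of the cortex, 3 receptors for neuropeptide Y (Npy1r, Npy2r and Npy5r) and 4 receptors for somatostatin (Sstr1, Sstr2, Sstr3 and Sstr4). They were taken by gene name from the deposited table of raw counts, where all 7 were found among 54532 listed genes, and all 7 passed the filter on low counts, which kept 17195 genes. The counts came from bulk RNA-seq of the cortex of 8-mo-old, singly housed C57BL/6 males, with 1 library per mouse. The 4 PS19 mice (m677, m668, m665 and m659) expressed human tau bearing P301S from a transgene under control of the prion promoter of the mouse. The 4 Adrb1-A187V;PS19 mice (m671, m661, m660 and m658), called knock-in mice for short, carried the same transgene and 1 copy of the A187V knock-in allele of Adrb1, the β1-adrenergic receptor gene. Both groups therefore express mutant tau, and a group without the transgene was not analysed here.

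Neuropeptide Y and somatostatin are released mainly by inhibitory interneurons of the cortex, and cortistatin, a close relative of somatostatin, acts on the same receptors. The receptors couple to Gi/o proteins, which lower cyclic AMP, open inwardly rectifying potassium (GIRK) channels and reduce transmitter release. The β1-adrenergic receptor acts through Gs and raises cyclic AMP. The comparison asked whether the level of the receptor transcripts differed with the Adrb1 genotype in mice with tau pathology.

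The total was between 14653222 and 21223754 counts in PS19 mice and between 16865651 and 20802158 in knock-in mice. The markers of cortical excitatory neurons chosen for this check (10 genes, Slc17a7 and Tbr1 among them) were all counted. Their summed level was 1837.8 to 2080.3 CPM (counts scaled to a common library size with TMM factors) in PS19 mice and 1705.0 to 1909.0 in knock-in mice. Markers of the striatum were counted as well, with a summed level of 1049.4 to 2084.4 CPM and 1104.0 to 2335.7 CPM, respectively. The level of Adrb1 itself averaged 36.8 ± 4.19 CPM in PS19 mice, against 35.0 ± 3.71 CPM in knock-in mice (SD, n = 4 each). The counts do not separate the mutant from the normal allele, so this level does not check the genotype labels. Mapt and Prnp, the mouse tau and prion protein genes, gave -0.05 (SE 0.04) and -0.06 (SE 0.05) for the log2 fold change (log2FC, knock-in over PS19).

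The 7 genes lie on 6 chromosomes of GRCm38. Npy1r (ENSMUSG00000036437, chromosome 8, 66697192 to 66706792, plus strand) and Npy5r (ENSMUSG00000044014, chromosome 8, 66679965 to 66688128, minus strand) are neighbours that point away from each other, with starts 9064 bases apart. Npy2r (ENSMUSG00000028004) is on chromosome 3, 82538383 to 82548084, minus strand. Sstr1 (ENSMUSG00000035431) is on chromosome 12, 58211772 to 58214444, plus strand, and Sstr2 (ENSMUSG00000047904) on chromosome 11, 113619342 to 113626028, plus strand. Sstr3 (ENSMUSG00000044933) is on chromosome 15, 78537008 to 78544685, minus strand, and Sstr4 (ENSMUSG00000037014) on chromosome 2, 148395344 to 148396767, plus strand. In the GENCODE M21 models, whose coordinates matched the table for all 7 genes, the coding sequence of Npy1r had 2 exons and that of each of the other 6 receptors had 1. Sstr2 lies within Slc39a11, a zinc transporter gene on the opposite strand with 200 to 326 counts per mouse, and the strand setting of the counting is not given in the sources used here. No other listed gene overlapped a receptor gene.

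The 4 somatostatin receptors were closer to each other in coding sequence than the NPY receptors were. Aligned from end to end, the coding bases were between 61.1% and 69.6% identical among the 6 pairs of somatostatin receptors, with Sstr1 and Sstr4 the closest pair. Among the 3 pairs of NPY receptors, the identity was between 54.3% and 56.6% and between the 2 families it was between 49.8% and 56.1%. The longest run of identical bases in any pair was 23 bases, which is shorter than the reads. The runs shared by Sstr1 with Sstr4 and with Sstr3 are shown because they are the longest stretches that cannot tell one receptor from another. Capitals mark the identical run, and each line gives coding strand sequence with 12 bases on either side.

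Sstr1, chr12:58213515-58213560, plus strand of GRCm38: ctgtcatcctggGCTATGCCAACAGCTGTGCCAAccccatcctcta
Sstr4, chr2:148396348-148396393, plus strand of GRCm38: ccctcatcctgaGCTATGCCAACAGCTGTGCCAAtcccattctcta
Sstr1, chr12:58213535-58213581, plus strand of GRCm38: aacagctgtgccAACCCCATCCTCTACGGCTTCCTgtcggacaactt
Sstr3, chr15:78539560-78539606, minus strand of GRCm38: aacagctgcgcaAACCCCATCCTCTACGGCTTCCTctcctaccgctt

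By construction each run ends where the pair differs, so a read that extends past a run holds a base that separates both genes.

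Per kilobase of gene length, which makes levels comparable between genes, the mean levels of the receptors fell into 3 tiers. Sstr4, a receptor known from cortical and hippocampal excitatory neurons, was the highest on average with 8.96 ± 1.25 CPM per kilobase (SD, n = 8 mice), followed by Sstr1 with 8.21 ± 0.516, Sstr2, a main mediator of the inhibitory action of somatostatin, with 7.76 ± 1.20, and Npy1r, the main postsynaptic NPY receptor of the cortex, with 7.43 ± 0.825. The ranges of these 4 genes over the mice overlapped. Sstr4 was above Sstr1 in 7 of 8 mice, Sstr1 above Sstr2 in 4 of 8 and Sstr2 above Npy1r in 4 of 8, so the order among the last 3 did not exceed their spread. Sstr3, the somatostatin receptor of neuronal primary cilia, had 5.36 ± 0.679 CPM per kilobase and was below Npy1r in every one of the 8 mice, although their ranges touched (4.29 to 6.26 for Sstr3 and 6.13 to 8.55 for Npy1r). The range of Sstr2, 5.24 to 9.19, overlapped that of Sstr3 further, and in m665 Sstr2 was below Sstr3 (5.24 against 5.63). The first 2 tiers were therefore not separate in every mouse. Npy2r, the presynaptic receptor that limits transmitter and NPY release, had 2.17 ± 0.739, and Npy5r, known for its part in feeding and often expressed beside Npy1r, had 2.01 ± 0.283. These lowest 2 did not differ beyond their spread, with Npy2r above Npy5r in 5 of 8 mice, and both were below Sstr3 in every mouse. Without division by length, the order of CPM was Npy1r, Sstr3, Sstr1, Sstr2, Sstr4, Npy2r and Npy5r. The place of Sstr4 at the top thus rests on its short gene model of 1424 bases. The place of Sstr3 below Sstr1, Sstr2 and Sstr4 likewise rests on its long model of 4320 bases. In CPM its mean was 23.1, against 16.8, 16.6 and 12.8 for those genes.

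**Figure D1:**
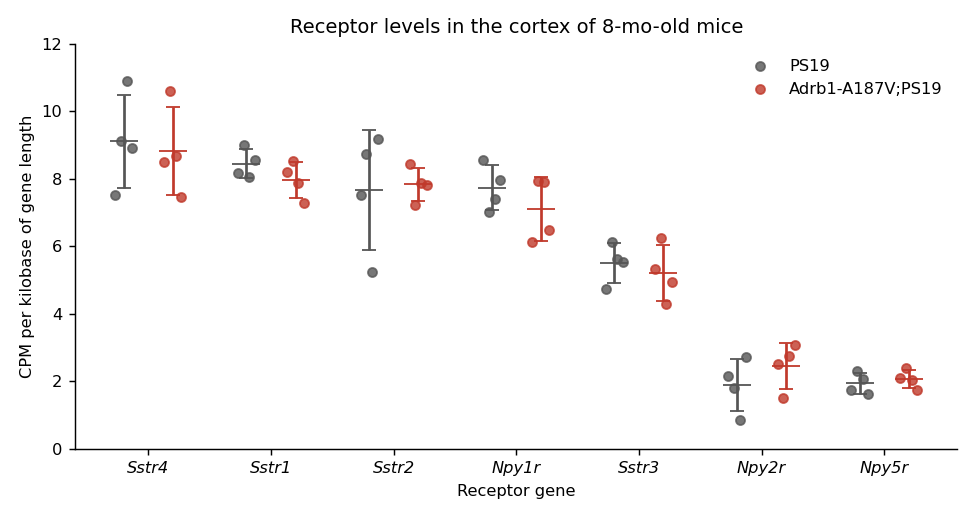
Level of each receptor gene in CPM per kilobase of gene length (vertical axis), with 1 point per mouse, PS19 mice in grey and Adrb1-A187V;PS19 mice in red, and the mean with SD (n = 4) of each genotype. Sstr4, Sstr1, Sstr2 and Npy1r share 1 range, Sstr3 has a mean of 5.36, and Npy2r and Npy5r have means of 2.17 and 2.01.

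The order was the same in each genotype for Sstr4, Sstr1 and Sstr3 (places 1, 2 and 5), while Sstr2 and Npy1r, and Npy2r and Npy5r, exchanged places. Summed over the family, the 4 somatostatin receptors had 30.3 ± 2.15 CPM per kilobase (SD, n = 8) and the 3 NPY receptors 11.6 ± 0.853. On this scale the ligand genes Sst and Npy were higher than either sum, with 294.6 ± 28.0 and 103.3 ± 9.67, while Cort, which encodes cortistatin, had 10.8 ± 1.81. The other receptors of these families were low. Sstr5 had 5 to 26 counts per mouse. Npy4r had 0 to 2 counts and Npy6r 0 to 3, at or under a floor of 3 counts, which is 0.141 to 0.205 CPM depending on the library, and Pyy and Ppy, the other peptides of the NPY family, had 0 counts in all 8 mice. These 4 genes did not pass the filter and were not tested.

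No difference between the genotypes was detected for any of the 7 receptors. In edgeR's quasi-likelihood test, 0 of 7 had an unadjusted p under 0.05, the study's criterion, where 481 of the 17195 genes tested, or 2.80%, did. After Benjamini-Hochberg adjustment across the whole table, 0 of 7 receptors and 0.00% of the genes had an adjusted p under 0.05 in edgeR's test, and the adjusted p of each receptor was 0.9996. DESeq2 also gave an adjusted p under 0.05 for 0 genes, with 555 of 33611 genes at an unadjusted p under 0.05, and limma-voom for 0 genes, with 492 of 17195. The exact permutation test of each receptor's CPM (2-sided, 70 labelings) gave p between 0.229 and 0.914. The CPM of the 4 mice of one genotype overlapped those of the other for all 7 receptors, where 2.02% of the genes tested did not overlap. The median log2FC of the receptors was -0.05, with 3 higher and 4 lower in knock-in mice, beside a median of 0.00 over all genes tested. With DESeq2's Wald test and with limma-voom, no receptor had an unadjusted p under 0.05 either.

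Of the NPY receptors, Npy1r had 29.5, 24.3, 25.6 and 27.5 CPM in PS19 mice m677, m668, m665 and m659, and 21.2, 27.4, 27.3 and 22.4 CPM in knock-in mice m671, m661, m660 and m658. The 2 lowest values were those of m671 and m658, and the other Adrb1-A187V;PS19 mice lay among the PS19 mice. Its log2FC was -0.12 (SE 0.10) with an unadjusted p of 0.251 from edgeR, and its 95% interval allows a level from 0.795 to 1.07 times that of PS19 mice. Npy5r, its neighbour on chromosome 8, had 4.47, 5.94, 5.29 and 4.16 CPM in the PS19 mice and 5.40, 6.13, 5.21 and 4.41 in the knock-in mice, from 69 to 128 counts. Its log2FC was 0.09 (SE 0.17), so the interval, 0.833 to 1.37 times, was wider at this depth.

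Npy2r was the most variable of the receptors. It had 7.29, 6.07, 2.93 and 9.16 CPM in PS19 mice m677, m668, m665 and m659, and 8.46, 5.12, 9.29 and 10.4 CPM in knock-in mice m671, m661, m660 and m658. The highest value, in m658, was 3.56 times the lowest, in m665, and the coefficient of variation over the 8 mice was 34.1%, where counting alone would give 8.86%. The genotypes overlapped between 5.12 and 9.16 CPM. The mean was 6.36 ± 2.62 CPM (SD, n = 4) in PS19 mice and 8.32 ± 2.28 (SD, n = 4) in knock-in mice, with log2FC 0.40 (SE 0.29) and an unadjusted p of 0.190 from edgeR. The 95% interval allows a level from 0.858 to 2.02 times that of PS19 mice. The log2 fold change was 0.14 without m665 and 0.63 without m659. With no filter beyond 1 count, the standard error of Npy2r was smaller, 0.16, and its unadjusted p from edgeR was 0.0134 (adjusted p = 0.897), in a fit in which 4.06% of 33614 genes had an unadjusted p under 0.05.

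The somatostatin receptors varied less than Npy2r, with coefficients of variation from 6.28% to 15.5% over the 8 mice. Sstr1 had 16.7, 18.4, 16.5 and 17.5 CPM in PS19 mice m677, m668, m665 and m659, and 16.8, 17.4, 16.1 and 14.9 CPM in knock-in mice m671, m661, m660 and m658. Its coefficient of variation of 6.28% was close to the 5.80% that counting alone would give, the smallest excess among the 7 genes, and its log2FC was -0.08 (SE 0.09, unadjusted p = 0.353, edgeR). Sstr2 had 16.1, 18.7, 11.2 and 19.7 CPM in the PS19 mice and 18.1, 15.5, 16.9 and 16.8 in the knock-in mice, in the same order of mice. The PS19 mice held both the lowest value, in m665, and the highest, in m659, and enclosed all the Adrb1-A187V;PS19 mice. Its log2FC was 0.04 (SE 0.14), and it was -0.11 when m665 was left out.

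Sstr3 had 20.5, 26.5, 24.3 and 24.0 CPM in the PS19 mice m677, m668, m665 and m659 and 23.0, 27.1, 18.5 and 21.4 CPM in the knock-in mice m671, m661, m660 and m658. The lowest and the highest value were both in knock-in mice, m660 and m661. Its log2FC was -0.08 (SE 0.11, unadjusted p = 0.494, edgeR). Sstr4 had 10.7, 13.0, 15.5 and 12.7 CPM in the PS19 mice and 12.1, 15.1, 12.4 and 10.6 in the knock-in mice, with 1 mouse of each genotype, m665 and m661, above the rest. Its log2FC was -0.05 (SE 0.13). The 95% intervals of these 4 receptors together ran from 0.794 to 1.27 times the level of PS19 mice.

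**Figure D2:**
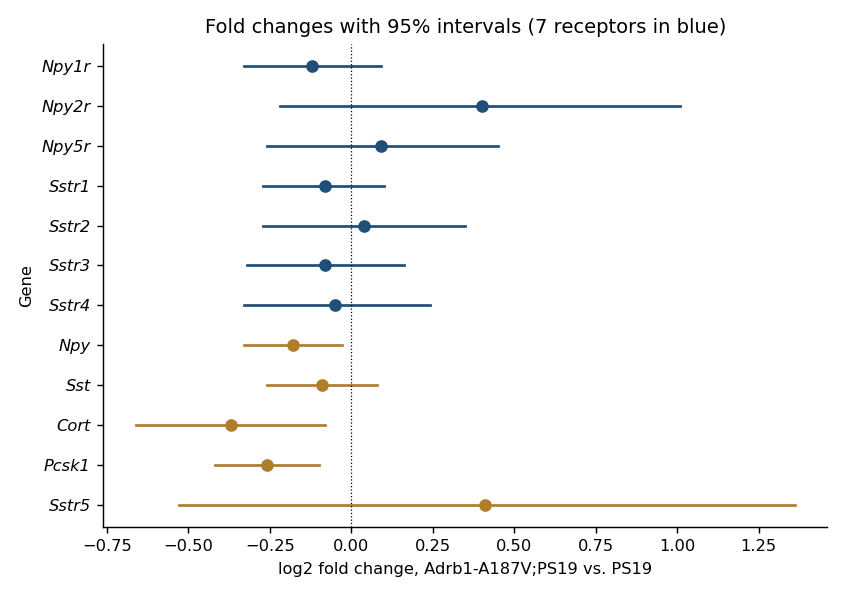
Log2 fold change in Adrb1-A187V;PS19 vs. PS19 mice (horizontal axis) of the 7 receptors in blue and of 5 other genes of the peptide systems in ochre, with lines for the 95% interval from edgeR. All 7 receptor intervals hold 0, from -0.12 for Npy1r to 0.40 for Npy2r, while those of Npy, Cort and Pcsk1 lie below 0.

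All 3 ligand genes tested had lower means in the knock-in mice (median log2FC -0.18). In edgeR's test, 2 of them had an unadjusted p under 0.05 and none had an adjusted p under 0.05. Over all 17195 genes tested, 8565 were lower, and 2.80% had an unadjusted p under 0.05 in either direction. The ligands, like the other lists, were chosen with earlier results of these data known. Npy had 59.3, 57.8, 67.6 and 63.4 CPM in PS19 mice m677, m668, m665 and m659 and 58.8, 52.8, 57.9 and 50.2 CPM in knock-in mice m671, m661, m660 and m658, with log2FC -0.18 (SE 0.07, unadjusted p = 0.0243, edgeR). The difference had no unadjusted p under 0.05 in the fits without m665 (0.0924), m659 (0.0536), m661 (0.0614) or m658 (0.0842). Cort had 8.24 ± 0.709 CPM (SD, n = 4) in PS19 mice and 6.36 ± 0.799 (SD, n = 4) in knock-in mice, with log2FC -0.37 (SE 0.13, unadjusted p = 0.0157, edgeR). The unadjusted p of Cort was under 0.05 in all 14 alternatives by edgeR, DESeq2 or limma-voom (0.00577 to 0.0439), and its adjusted p was 0.897 or more in each. Sst had 218.9 ± 12.2 and 205.8 ± 26.2 CPM, with log2FC -0.09 (SE 0.08), and its unadjusted p from edgeR, 0.276 with all mice, was 0.0184 without m671. The adjusted p from edgeR was 0.9996 for each of the 3 ligands, and their genotypes overlapped. Whether the ligand and receptor genes differ in their response to the genotype was not tested. In bulk tissue, fewer cells of a type and less RNA per cell cannot be told apart. The 13 interneuron markers that are not peptides were centred on log2FC 0.02 (median), with 8 higher and 5 lower and a summed level of 1152.6 to 1227.5 CPM in PS19 mice and 1164.7 to 1307.9 in knock-in mice. The single genes ran from -0.27 to 0.33, and the sum weights the most abundant of them. Whether the number of cortical interneurons differed was not tested.

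The lists of peptide processing, signalling and PDZ scaffolds held 29 genes tested. Of these, 3 (10.3%) had an unadjusted p under 0.05 from edgeR, beside 2.80% of all genes tested, and 2 of the 3 were scaffolds. None had an adjusted p under 0.05. These lists were also chosen with earlier results of the data known, so the shares are a description. Among 6 genes of peptide processing and cleavage, Pcsk1, the convertase that cuts peptide precursors, had 67.9 ± 5.64 CPM in PS19 mice and 56.7 ± 4.33 in knock-in mice (SD, n = 4 each), with log2FC -0.26 (SE 0.07, unadjusted p = 0.00317, adjusted p = 0.9996, edgeR), and its unadjusted p was under 0.05 in all 14 alternatives. The other 5, among them Pcsk2 and Cpe, had none. None of the 5 Gi/o alpha subunits had an unadjusted p under 0.05, and the smallest was 0.0969 for Gnai3. The same held for the 4 GIRK subunits, where the smallest was 0.0726 for Kcnj5, and for the 6 receptor kinases and arrestins, where it was 0.180 for Grk2. Of 8 PDZ scaffolds, a class that binds the tails of somatostatin receptors, Shank1 and Shank2 were lower, with log2 fold changes of -0.13 and -0.15 and unadjusted p-values of 0.0441 and 0.0276 from edgeR, and Dlg4, which encodes PSD-95, had -0.02. The median log2 fold change was 0.01 for the Gi/o subunits, -0.01 for the GIRK subunits, -0.02 for the kinases and arrestins, -0.06 for peptide processing and -0.05 for the scaffolds, beside 0.00 over all genes tested.

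**Figure D3:**
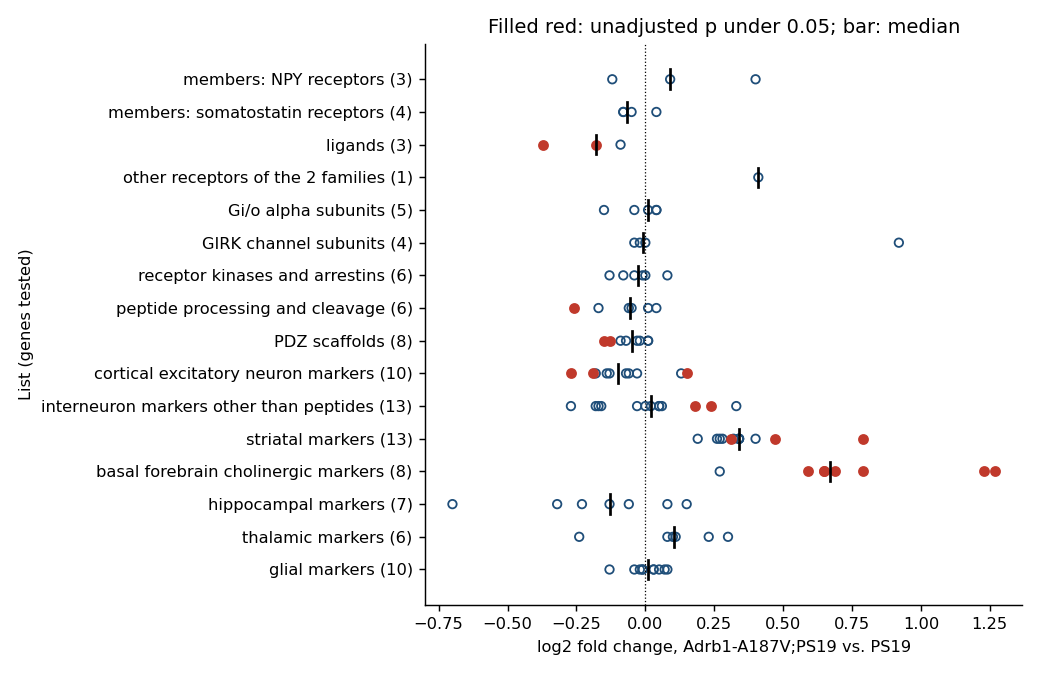
Log2 fold change of each gene tested (circles, horizontal axis) in the receptor families, the genes of their pathway and the marker lists, with filled red circles for an unadjusted p under 0.05 and a bar at each list's median. The receptor rows hold no filled circle, and the striatal and basal forebrain cholinergic rows lie above 0 throughout.

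The receptors did not all vary in the same direction from mouse to mouse. Of the 21 pairs of receptors, 10 had a positive and 11 a negative Pearson's r over the 8 mice, from -0.80 to 0.82. None passed Benjamini-Hochberg adjustment over the 21 pairs (smallest adjusted p = 0.243, exact permutation test, 2-sided). The neighbours Npy1r and Npy5r had r = -0.17 (Spearman's rho = -0.29, exact permutation p = 0.680 and 0.501). Npy2r and Sstr2 had r = 0.82 (exact permutation p = 0.0295, adjusted p = 0.310) with rho = 0.50 (exact permutation p = 0.216, adjusted p = 0.504). Without m665 and m661, the mice farthest from the median of Npy2r, r was -0.16, so this relation rested on those mice. Npy2r and Sstr4 ran in opposite directions, with r = -0.80 (exact permutation p = 0.0116, adjusted p = 0.243) and rho = -0.79 (exact permutation p = 0.0279, adjusted p = 0.349), and r was -0.33 without the same mice. Mice m665 and m661 also had the largest libraries, with 21223754 and 20802158 counts. With the log2 total count, Npy2r had r = -0.58 (rho = -0.19, exact permutation p = 0.134 and 0.665) and Sstr4 r = 0.64 (rho = 0.33, exact permutation p = 0.0807 and 0.428), and without m665 and m661 these r were 0.95 and -0.41. The 6 pairs among Npy5r, Sstr1, Sstr3 and Sstr4, grouped after their values were seen, were all positive, with r from 0.45 to 0.66. Of these, Sstr3 and Sstr4 had r = 0.65 (exact permutation p = 0.0866, adjusted p = 0.422) and rho = 0.76 (exact permutation p = 0.0368, adjusted p = 0.349), and r was 0.74 without m661 and m660.

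**Figure D4:**
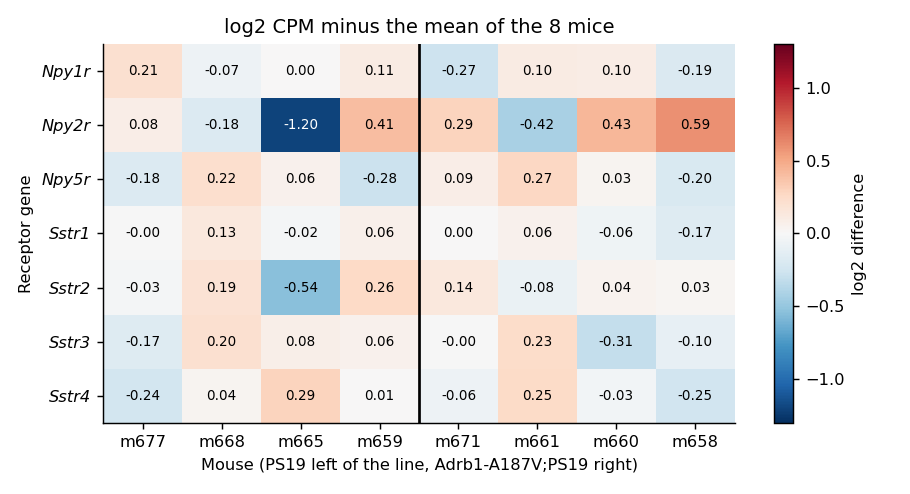
Log2 CPM of each receptor in each mouse minus the mean of that receptor over the 8 mice, as numbers and colors, with PS19 mice left of the line and Adrb1-A187V;PS19 mice right of it. Npy2r spans the widest range and is lowest in m665, where Sstr2 is also lowest and Sstr4 is highest.

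Npy1r was low in the mice with high striatal markers. The striatal score, the mean log2 deviation of 13 genes such as Drd1, Adora2a and Ppp1r1b, was related to Npy1r with r = -0.90 (exact permutation p = 0.00223, adjusted p = 0.125) and rho = -0.95 (exact permutation p = 0.00114, adjusted p = 0.0639) over the 8 mice. The adjustment was made over 56 relations, those of the 7 receptors with 7 marker lists and with the library total, so the relation did not pass. Without m671 and m677, the mice with the highest and the lowest score, r was -0.84, and with each genotype centred on its own mean it was -0.88. With the summed CPM of the list on a log2 scale in place of the score, r was -0.91 (exact permutation p = 0.00193, adjusted p = 0.0948). All 13 striatal genes had higher means in the knock-in mice (median log2FC 0.34). Of these, 3 had an unadjusted p under 0.05 from edgeR (Isl1, Tac1 and Pdyn), beside 2.80% of all genes tested. The striatal list was chosen with earlier results of these data known, so these shares are a description and no test of the list. None of the 13 had an adjusted p under 0.05 in edgeR's test, and none was at 0 counts. Their part in the log2 fold change of Npy1r was not tested.

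**Figure D5:**
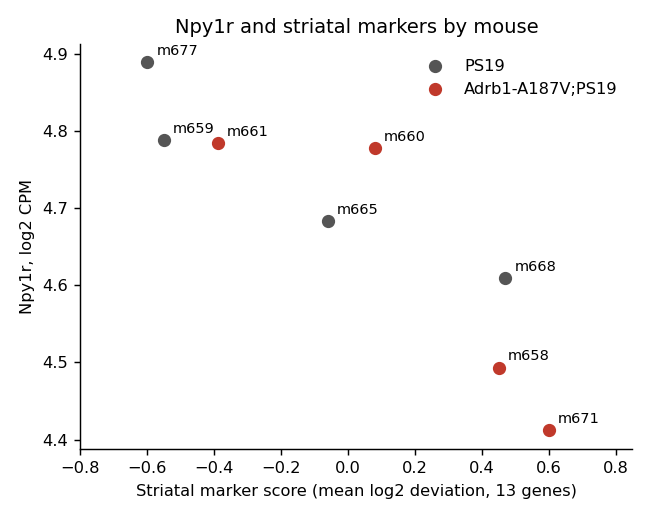
Npy1r in log2 CPM (vertical axis) against the striatal marker score (horizontal axis, mean log2 deviation of 13 genes), with 1 labelled point per mouse, PS19 in grey and Adrb1-A187V;PS19 in red. Pearson's r was -0.90, and the mice m671 and m677 stand at the ends of the score.

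The other marker lists moved as follows. The 8 basal forebrain cholinergic markers all had higher means in the knock-in mice (median log2FC 0.67). Of these, 7 had an unadjusted p under 0.05 from edgeR (Chat, Slc5a7, Slc18a3 and Lhx8 among them), beside 2.80% of all genes tested. Because the cholinergic list was chosen with earlier results of these data known, these shares are a description and no test of the list. No gene of any marker list had an adjusted p under 0.05 in edgeR's test. Some of the cholinergic markers had few counts, such as Lhx8 with 20 to 92 per mouse. Slc18a3 lies within Chat on the same strand, so the counts of this pair may share reads. The summed level of the 8 cholinergic markers was 33.6 to 55.4 CPM in PS19 mice and 54.1 to 82.8 in knock-in mice. The cortical excitatory markers had a median of -0.10, with Slc17a7, Tbr1 and Neurod6 lower and Cux1 higher at an unadjusted p under 0.05, and of the interneuron markers Gad2 and Slc32a1 were higher at that threshold. Hippocampal, thalamic and glial markers had medians of -0.13, 0.10 and 0.01 and no gene under it. The smallest unadjusted p in these lists was 0.101 for C1ql2, 0.134 for Ramp3 and 0.187 for Aldh1l1.

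Among 14487 other protein-coding genes, the patterns most like each receptor over the 8 mice belonged to different genes for each receptor. Npy1r was most like Fxyd5 and D930020B18Rik (r = 0.99 and 0.97), Npy2r most like Phkb and B3gat2 (0.98 and 0.97), and Npy5r most like Atg7 and Bank1 (0.98 and 0.96). Sstr1 was most like Stard3nl and Mrpl40 (0.97 and 0.95), Sstr2 most like Txnrd1 and Ecscr (0.98 and 0.97), Sstr3 most like Lmbr1 and Gpr162 (0.96 and 0.95) and Sstr4 most like Mypn and Sntg1 (0.97 for both). With 8 mice and so many genes, values this high belong to the best match of a large search, so they are given as a description with no test.

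RefSeq promoter windows of 300 bases, 250 before to 50 after a gene's start in GRCm38.p6, were given for 6 of the 7 receptors, 7 windows in all. They were searched on both strands for 6 short motifs. CCCGCC, the core of an Sp1 site, was in the windows of Sstr2 and Sstr4 and in 35.3% of 32851 windows of all genes. CCAAT was in those of Npy5r, Sstr3 and Sstr4 and in 37.4% of all, the E-box CACGTG in those of Npy5r and Sstr3 and in 7.15% of all, and TATAAA in none and in 13.6% of all. TGACG, which is part of the cyclic AMP response element, was in those of Sstr2 and Sstr3 and in 20.8% of all. The whole element TGACGTCA, the palindrome bound by CREB and long studied in the promoter of Sst, was in 1 receptor window, that of Sstr2, and in 588 of the 32851 windows, or 1.79%. It was singled out here after the matches were seen, because the receptor Sstr2 and its ligand Sst both carry it. It lies 58 to 51 bases before the RefSeq start of Sstr2 and 48 to 41 before that of Sst. The RefSeq starts differ from the Ensembl bounds used for the counts. On chromosome 16 the Ensembl model of Sst reaches 23890958 and so includes the element. Capitals mark the element.

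Sstr2, chr11:113619077-113619376, plus strand: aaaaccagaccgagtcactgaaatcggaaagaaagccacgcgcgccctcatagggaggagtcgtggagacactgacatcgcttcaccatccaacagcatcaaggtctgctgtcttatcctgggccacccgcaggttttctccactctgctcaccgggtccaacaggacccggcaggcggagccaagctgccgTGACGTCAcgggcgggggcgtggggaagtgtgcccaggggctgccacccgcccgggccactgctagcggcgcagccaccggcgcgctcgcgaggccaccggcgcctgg
Sst, chr16:23890795-23891094, minus strand: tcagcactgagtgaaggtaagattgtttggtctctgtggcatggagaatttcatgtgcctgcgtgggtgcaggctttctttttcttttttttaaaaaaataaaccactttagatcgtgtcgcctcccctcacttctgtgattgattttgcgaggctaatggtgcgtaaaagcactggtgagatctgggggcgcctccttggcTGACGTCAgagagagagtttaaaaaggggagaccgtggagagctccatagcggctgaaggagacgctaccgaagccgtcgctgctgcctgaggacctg

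The log2 fold changes of these genes were 0.04 for Sstr2 and -0.09 for Sst, and neither had an unadjusted p under 0.05 from edgeR. The bases around the element differed in composition, with 66.3% G and C in the window of Sstr2 and 50.3% in that of Sst. Among the receptor windows, that of Sstr4 was the richest, with 68.7% G and C and 35 CpG dinucleotides, and that of Npy1r had 51.7% and 10.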

How the data were processed

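Cortical RNA of 8 mice, 4 PS19 and 4 Adrb1-A187V;PS19, was sequenced in paired-end libraries, and groups were taken from the genotype labels. The authors aligned reads to GRCm38 with HISAT2 2.0.5, counted them per Ensembl gene with featureCounts 1.5.0-p3 (versions as in the submitters' processing notes) and deposited raw counts without normalization. CPM were divided by the deposited gene length in bases where levels of genes were compared.

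Genes were kept by edgeR's filterByExpr, normalized with TMM factors and compared by genotype alone with the 2-sided quasi-likelihood test of edgeR 4.0.16 under R 4.3.3. P-values were adjusted by Benjamini-Hochberg across every gene that passed the filter. A standard error is the log2 fold change divided by the square root of F. Log2 CPM used a prior count of 2. Alternatives were DESeq2 1.42.0, limma-voom (limma 3.58.1), DESeq2 size factors, only protein-coding genes, a minimum of 10 counts in each of the mice, every gene with at least 1 count, and each mouse left out. Coding sequences were aligned with Biopython 1.88. Simulated counts for 16961 genes, in which 200 genes were changed by a fold of 2 before the filter, gave an adjusted p under 0.05 for 80.8% of those tested. Each simulated gene had the spread typical of its level, not its own spread. Of the simulated unchanged genes, 5.05% had an unadjusted p under 0.05 from edgeR, beside 2.80% of the genes tested in the data. The simulation checks the procedure and does not give the power for smaller changes or for the receptors.

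The genes named were all members and ligands, the related receptors, Adrb1, Mapt and Prnp, genes of each list with an unadjusted p under 0.05 or else the smallest, and the most alike gene pair of each receptor. Dlg4 and a few typical list members were named besides. Some genes of the marker lists are not reported here by name. Members and lists were chosen with earlier results of these data known. The relations with marker lists, and their repeat on summed CPM, were added after the receptor values were seen, and the response element was singled out after 6 motifs had been searched.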

Additional observations from a re-analysis of the deposited data

How the results depend on the processing

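No receptor had an adjusted p under 0.05 from edgeR, DESeq2 or limma-voom in any of the 14 alternatives, and the adjusted p of the receptors ran from 0.897 upwards. With no filter beyond 1 count, 66 genes of the table had an adjusted and 1366 an unadjusted p under 0.05 from edgeR, 1 receptor (Npy2r, log2 fold change 0.40) among the latter; the cause was not tested. With 1 mouse left out, the number of genes with an adjusted p under 0.05 from edgeR was 0 to 2 (1 without m661 and 2 without m658). The log2 fold change changed sign in 3 receptors when a mouse was left out: Sstr2 ran from -0.11 (without m665) to 0.14, Sstr3 from -0.18 to 0.0031 (without m660) and Sstr4 from -0.15 to 0.05 (without m665, and 0.02 without m658). Without division by gene length, 2 of the 7 receptors kept their place in the order of levels. The correlation of Npy2r and Sstr2 was -0.16, and that of Npy2r and Sstr4 -0.33, without the 2 mice farthest from the median. No paired analysis was possible because mouse numbers are unique and litters are not named in the labels. The relations of Npy2r, Npy5r and Sstr4 with the glial list had no unadjusted p under 0.05 when its summed CPM replaced the score. Counting alone would give a coefficient of variation of 4.69% to 10.5% for the receptors, the highest for Npy5r with 69 to 128 counts per mouse.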

Other observations

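Glial markers (10 genes of microglia, astrocytes and oligodendrocytes, Gfap and Mbp among them) differed from mouse to mouse, with a summed level of 4416.3 to 6131.8 CPM in PS19 mice and 4685.1 to 5858.4 CPM in Adrb1-A187V;PS19 mice. These sums weight the most abundant genes, so a score that weights the 10 genes equally, their mean log2 deviation, was used as for the striatal list. Over the 8 mice, Npy2r was higher where this score was higher, with r = 0.76 (exact permutation p = 0.0187) and rho = 0.71 (exact permutation p = 0.0576). Npy5r, Sstr3 and Sstr4 were lower where the score was higher, with r = -0.85, -0.81 and -0.77 (exact permutation p = 0.0138, 0.0175 and 0.0330) and rho = -0.88, -0.76 and -0.52 (exact permutation p = 0.00724, 0.0368 and 0.197). The adjusted p over the 56 relations was between 0.209 and 0.237 for r and between 0.203 and 0.550 for rho, so none of the 4 passed. Without m668 and m661, r was 0.85, -0.65, -0.58 and -0.74, respectively. With the log2 of the summed CPM in place of the score, r was 0.14, -0.54, -0.79 and -0.36 (exact permutation p = 0.756, 0.168, 0.0190 and 0.386), so the relations of Npy2r, Npy5r and Sstr4 depend on how the list is summarised. Other lists gave an unadjusted p under 0.05 only with the sum. Examples are excitatory markers with Sstr1 (r = 0.83, exact permutation p = 0.00947) and Sstr3 (0.77, 0.0267), and cholinergic markers with Npy2r (0.76, 0.0279). Each of these 3 had an adjusted p of 0.228 over 49 relations. These relations were computed after the receptor values had been seen. Of all 56 relations, 8 had an unadjusted p under 0.05 for r. Among the 8 were Sstr3 with the thalamic score (r = -0.77, exact permutation p = 0.0286) and Sstr2 with the hippocampal score (r = -0.70, exact permutation p = 0.0339), each with an adjusted p of 0.237. Sstr3 was thus related to the thalamic score about as much as to the glial score. A source of the glial differences was not tested.

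Sstr2 was lower in the larger libraries, with r = -0.77 between its log2 CPM and the log2 total count (exact permutation p = 0.0171, adjusted p = 0.209) and rho = -0.71 (exact permutation p = 0.0576, adjusted p = 0.432). Without m661 and m665, the mice with the largest libraries, r was -0.37.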
